A study of Mus musculus with 3 samples.

Results

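Of 85551 autosomal chromatin regions that were open in Hic1-lineage mesenchymal progenitors (MPs) of the mouse forelimb at both E12.5 and E14.5, 2621 had no peak at E16.5, and these 2621 members are described here. The peak lists of the 3 stages were merged wherever they shared at least 1 bp, which gave 266531 regions, of which 260778 were autosomal. Members were chosen by the peak calls alone, as 3.06% of the early regions, meaning autosomal regions with a peak in both earlier lists. That share was 1.61% (966 members) when the early peaks had to cover at least 50% of each other, and 1.28% (803 members) among regions open in at least 1% of nuclei at both stages. The other 82930 early regions had an E16.5 peak and serve as the comparison. A further 36 regions that met the same rule on chromosome X or Y were left out.

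Droplet-based single-nucleus ATAC-seq gave 1 library per embryonic stage (E12.5, then E14.5, then E16.5). The embryos were C57BL/6J and carried Hic1CreERT2/CreERT2 and Rosa26LSLtdTomato/tdTomato, an inducible Cre driven from the Hic1 locus with a red reporter. Tamoxifen (7.5 mg in 300 uL of oil) was given to the dam at E10 in every group, so nuclei come from tdTomato+ cells whose forebears expressed Hic1 at about that time, sorted as negative for blood and endothelial surface proteins. Forelimbs were used at E12.5 and E14.5, but at E16.5 only the segment around the elbow, without the hand. E12.5 tissue was pooled and dissociated with Dispase, whereas the later stages were dissociated with Collagenase A, Pronase and DNase. Between E14.5 and E16.5 the stage, library, limb segment and software version in the file headers cannot be told apart, and between E12.5 and E14.5 the stage, library and dissociation cannot. With 1 library per stage no test between stages was possible.

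The E16.5 library was the deepest, with 413425059 cut sites over 14048 nuclei and 213613 peaks. The E12.5 library had 87048167 cut sites over 8294 nuclei and 190443 peaks, and the E14.5 library had 204289151 over 20023 nuclei and 102459 peaks. Between 151 and 401 barcode sequences occurred in any pair of libraries, and 6 in all 3. All intervals below are 95% intervals and cover counting error only. E16.5 counts were given per E16.5 peak, so members have no E16.5 value here, and a missing peak is not a measure of closed chromatin.

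Open chromatin marks promoters, enhancers and insulators, where DNA-binding proteins keep nucleosomes away. Enhancers of limb patterning genes often lie far from the gene they act on, inside gene deserts or the introns of neighbouring genes, and are open in only some cells and stages. Posterior Hox proteins pattern the forearm and hand and prefer an AT-rich site written here as TTTATNG, whereas AP-1, the dimer of Fos and Jun proteins, binds TGANTCA.

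The sequences of 4 members are shown because the letters TTTATNG set members apart from the other early regions in the motif search described further on. Each is 300 bases at the centre of the E14.5 peak, plus strand of GRCm38.p6 from RefSeq, with capitals marking TTTATNG or its reverse complement CNATAAA. The first is the strongest member by the lower of its shares of nuclei at E12.5 and E14.5. The next is tied with another for the most matches of the members in the HoxD gene desert. The one after it has the most of those near Sall1, and the last is a strong member without a match. Windows with matches are thus over-represented here, since 63.7% of member windows outside promoters had none.
Mpped2, chr2:106487642-106487941: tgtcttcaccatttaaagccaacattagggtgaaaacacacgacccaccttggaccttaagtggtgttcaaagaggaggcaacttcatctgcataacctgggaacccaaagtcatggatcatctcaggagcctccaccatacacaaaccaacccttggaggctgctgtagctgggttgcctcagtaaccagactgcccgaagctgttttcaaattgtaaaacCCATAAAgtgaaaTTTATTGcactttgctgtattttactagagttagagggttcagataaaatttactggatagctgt
Atp5g3, chr2:74075640-74075939: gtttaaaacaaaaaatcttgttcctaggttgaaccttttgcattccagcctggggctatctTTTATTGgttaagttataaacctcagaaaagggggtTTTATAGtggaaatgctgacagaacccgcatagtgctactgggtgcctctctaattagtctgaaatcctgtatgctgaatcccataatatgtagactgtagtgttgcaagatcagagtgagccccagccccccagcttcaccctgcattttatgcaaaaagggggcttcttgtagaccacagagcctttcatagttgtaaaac
Sall1, chr8:89641617-89641916: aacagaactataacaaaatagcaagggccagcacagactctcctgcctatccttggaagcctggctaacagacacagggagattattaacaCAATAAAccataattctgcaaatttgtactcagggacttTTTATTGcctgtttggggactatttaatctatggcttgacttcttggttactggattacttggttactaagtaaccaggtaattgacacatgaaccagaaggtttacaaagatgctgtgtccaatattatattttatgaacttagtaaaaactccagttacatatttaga
Tmem163, chr1:127595380-127595679: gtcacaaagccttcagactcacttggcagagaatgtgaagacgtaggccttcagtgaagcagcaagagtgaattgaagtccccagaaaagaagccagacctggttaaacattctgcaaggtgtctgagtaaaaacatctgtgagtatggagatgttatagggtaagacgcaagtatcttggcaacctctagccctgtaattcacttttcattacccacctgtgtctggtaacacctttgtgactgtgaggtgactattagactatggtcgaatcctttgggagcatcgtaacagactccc
The names give the nearest protein-coding start site and no regulatory link. Mpped2, Atp5g3 and Sall1 have 2 matches each in their windows, and Tmem163 has none. None of the 4 windows holds the AP-1 letters.

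Members were open in few nuclei at either early stage. These levels are a description, because weak regions are also the ones most easily missed by a peak caller. The share of nuclei with a count had a median of 1.24% at E12.5 (interval of the median 1.19 to 1.28%) and 0.959% at E14.5 (0.939 to 0.984%). The other early regions had medians of 2.51% and 2.52%. No member exceeded 5% of nuclei at both stages, against 23.3% of the other early regions. Most members, 1691 or 64.5%, had the higher share at E12.5, against 41.9% of the other early regions. Among the other early regions open in at most 2% of E14.5 nuclei, called sparse below, this was 62.5%, close to the members. The sparse regions had median shares of 1.35% at E12.5 and 1.19% at E14.5, above those of members. They are therefore not matched to members in level, and differences from them can still hold a difference in level. Of the members, 2414 met the same limit of 2%. Each share was counted over the peak called at that stage. Median widths of member peaks were 675 bp at E12.5 and 300 bp at E14.5, so the shares cover unlike widths. The order of the medians turned when the E12.5 and E14.5 peaks had to cover at least 50% of each other, to 0.904% at E12.5 and 1.30% at E14.5.

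**Figure D1:**
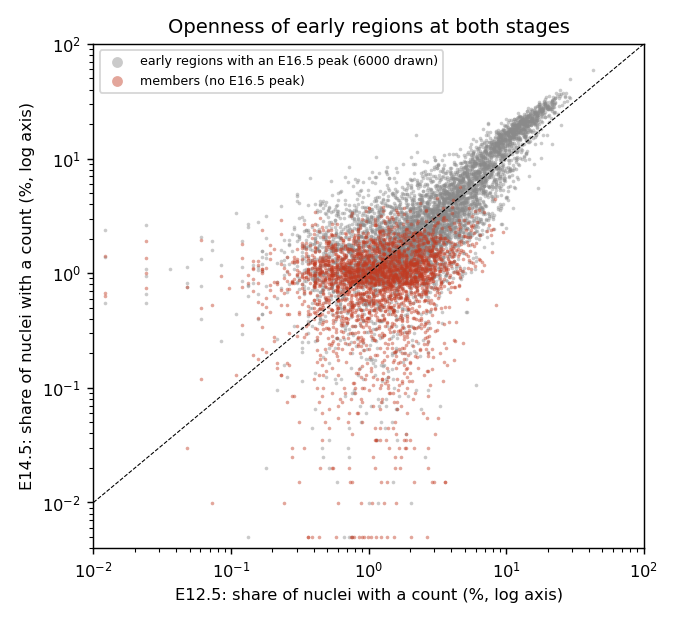
Share of nuclei with a count at E12.5 (x, percent, log axis) and E14.5 (y, percent, log axis), 1 point per region, for the 2621 members (red) and 6000 drawn early regions with an E16.5 peak (grey); regions with no count at a stage are not shown and the dashed line marks equality. Members sit at the lower left, around medians of 1.24% and 0.959%.

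Per kb of called peak, members had a median of 3.99 CPM (counts scaled to a fixed total over all early regions of the library) at E12.5 and 5.25 at E14.5. The other early regions had 5.89 and 7.06, and the sparse ones 4.21 and 5.51. The log2 ratio of E14.5 over E12.5 per kb had a median of 0.31 in members and 0.39 over all early regions, so members lay 0.08 below the general shift. The sparse regions had the same median as members, 0.31 (0.30 to 0.32). Of 2609 members with counts at both stages, 98 (3.76%) were at least 2-fold lower at E14.5, where 1.1% of all early regions and 2.05% of the sparse ones were. At least 2-fold higher were 307 members (11.8%), where 13.4% of all early regions and 11.9% of the sparse ones were. With the median ratio of early regions set to 1, the split turned to 259 members lower (9.93%) and 65 higher (2.49%), against 3.99% and 4.17% of all early regions.

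Together the members held 0.992% of the E12.5 cut sites in early regions and 0.461% of those at E14.5. They took up 1.77% and 1.07% of the called width. When the early peaks had to cover at least 50% of each other, the cut-site shares were 0.353% and 0.294%. Member peaks were narrow, with median called widths of 675 bp at E12.5 and 300 bp at E14.5, against 1024 and 666 bp in the other early regions. The sparse ones had 648 and 378 bp, so at E12.5 members were not the narrower set. In 395 members (15.1%) the E14.5 peak was under 100 bp, against 2.81% of the other early regions and 6.85% of the sparse ones. No member had more than 10 cut sites in any E14.5 nucleus, while the maximum was 748 among the other early regions and 14 among the sparse ones. Soft-masked repeats made up a median of 11.01% of member bases and 12.5% of bases in the other early regions.

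The share of regions lacking an E16.5 peak was lower at higher levels. Early regions were ranked by E14.5 share and cut into 10 bins of nearly equal size. In bin 1, up to 0.844% of nuclei, 1057 of 8616 regions (12.3%) were members. Bin 2 held 7.34%, bin 3 held 4.87%, bin 5 held 1.91% and bin 7 held 0.304%. Only 1 member lay in bins 8 to 10, the intronic region near Mpped2. Those regions of bin 1 that were called at E16.5 were open in a median of 2.85% of E16.5 nuclei, and 5% of them in under 0.876%.

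Within a level, the genomic class still separated the regions. In bin 1, 14.8% of intergenic regions (13.65 to 16.04%) lacked an E16.5 peak, against 11.3% of intronic (10.3 to 12.3%), 8.28% of exonic and 7.56% of promoter regions (5.16 to 10.6%). In bin 3 the shares were 6.35% of intergenic, 4.33% of intronic, 2.21% of exonic and 2.18% of promoter regions. Intergenic regions were the highest in each of bins 1 to 6.

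**Figure D2:**
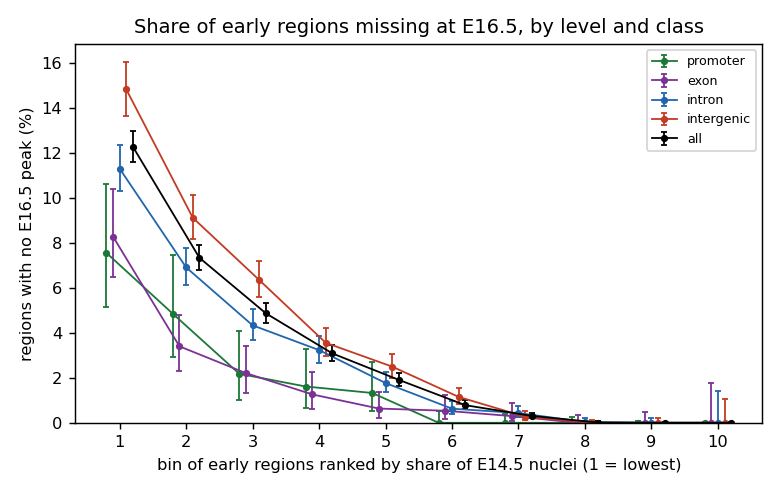
Percent of early regions with no E16.5 peak (y) in 10 bins of early regions ranked by share of E14.5 nuclei (x), for all regions and for each class, with exact binomial intervals as bars. The percentage for all regions falls from 12.3% in bin 1 to 0 in bins 9 and 10, and intergenic regions lie above promoters and exons in bins 1 to 6.

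Members lay between genes or in introns far more often than at promoters. Intergenic regions made up 50.6% of members (48.7 to 52.6%) and introns 41.2%, and only 72 members (2.75%) were at a promoter, taken as up to 1000 bp before and 100 bp after any annotated start. The other early regions were 34.3% intergenic, 34.8% intronic and 21.0% promoter. The sparse ones were 40.7% intergenic, 43.8% intronic and 5.003% promoter. Against the sparse ones the promoter gap was thus much narrower, and members were slightly less often intronic. The median distance to a protein-coding start site was 94541 bp in members, 31038 bp in the other early regions and 43495 bp in the sparse ones. To the start of any annotated gene, noncoding ones included, the median for members was 26057 bp. Beyond 100 kb from a protein-coding start site lay 1281 members (48.9%), against 24.2% of the other early regions and 28.5% of the sparse ones. Their bases were also poorer in G and C, with a median of 43.3% against 47.3% (45.7% in the sparse ones). They held a median of 7 CpG pairs per region against 18 (11 in the sparse ones), a count that also depends on region length. Median lengths were 694 bp in members, 1336 bp in the other early regions and 873 bp in the sparse ones.

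Most members had an E16.5 peak nearby, but less often than the other early regions had a further one. An E16.5 peak lay within 10 kb of 2074 members (79.1%) and within 1 kb of 418 (15.9%). For the other early regions, the nearest further E16.5 peak lay within 10 kb in 91.2% and within 1 kb in 22.4%. For the sparse ones these were 89.7% and 20.9%. The median gap was 3480 bp in members, 2109 bp in the other early regions and 2267 bp in the sparse ones.

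The edge of the rule was sharp in base pairs. The member nearest to an E16.5 peak, 12 bp away, lay near D030056L22Rik at chr19:18730629-18731761 and was open in 3.34% of E12.5 and 0.834% of E14.5 nuclei. The next were 21 bp away near Nek7 (0.880% and 0.619%) and 29 bp away near Tmem45b (2.46% and 1.09%). Just outside, 3 early regions overlapped E16.5 peaks by 1 bp, near Myo16 (4.01% and 1.503%), Kcnd2 (0.916% and 1.55%) and Cnr1 (1.13% and 1.15%). Within 100 bp of an E16.5 peak lay 16 members, and 390 early regions escaped membership by an overlap of at most 100 bp.

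The strongest members were single regions, most of them distal. Strength is taken here as the lower of the shares at E12.5 and E14.5. By E12.5 share alone, members reached up to 9.47%. The strongest of all, at chr2:106487142-106488437 in an intron of a noncoding gene 205479 bp upstream of Mpped2, was open in 380 of the E12.5 nuclei (4.58%, 4.14 to 5.05%) and 1135 of the E14.5 nuclei (5.67%, 5.35 to 6.00%). Its levels were 9.53 and 10.1 CPM per kb, and it lay 106 bp from an E16.5 peak. Its share of nuclei was higher at E14.5, while its level per kb had a log2 ratio of 0.08.

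Others had the larger share at E12.5, where their peaks were called wider. The exonic region of Zfp407, a zinc-finger gene, was open in 8.36% and 4.41% of nuclei, and an intergenic one far from Dtwd2 in 6.86% and 3.401%. The Zfp407 region was called over 3140 bp at E12.5 and 1105 bp at E14.5, and its log2 ratio per kb was 0.02. For the Dtwd2 region the widths were 1607 and 947 bp and the log2 ratio was -0.80. The region at chr12:34604058-34605449 in an intron of Hdac9, a histone deacetylase gene whose introns hold limb enhancers of the neighbouring Twist1, was open in 6.34% of E12.5 nuclei (5.83 to 6.89%) and 3.59% of E14.5 nuclei (3.34 to 3.86%). The region at chr11:24214236-24215333 134115 bp downstream of the start of Bcl11a, a zinc-finger repressor gene, was open in 5.97% and 3.51%, with 15.1 and 8.57 CPM per kb and a log2 ratio of -0.82. A region 54305 bp upstream of Nek7, a mitotic kinase gene, was open in 5.39% and 3.69%. An exonic region of Tsc1, an inhibitor of mTOR signalling, was open in 5.62% and 3.15%. Lower down, a region 560978 bp upstream of Plxna2, a semaphorin co-receptor gene, was open in 3.47% and 3.69%, one in Tmem163 in 4.04% and 3.37%, and one far upstream of Fam98a in 3.22% and 3.20%.

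Among the 8 strongest promoter members, 3 lay at a protein-coding start site. The strongest overlapped the start of Nrsn1, a neuronal membrane protein gene, and was open in 2.94% of E12.5 and 2.29% of E14.5 nuclei. Synpo2l, a muscle cytoskeletal gene, followed at 2.45% and 2.21%, and Ptpn22, a phosphatase gene of immune cells, at 2.34% and 1.75%. The region nearest to Igf1, a growth factor gene, lay at the start of the antisense transcript Igf1os and was open in 1.59% and 1.90%. Those nearest to Mei4, Ell2, Foxd1 and Rbpj lay at starts of noncoding genes and were open in 1.63 to 3.09% of nuclei at either stage.

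Members were spread thinly over genes. They were nearest to 1790 of the 16095 protein-coding genes that were nearest to an early region, and 1298 genes had exactly 1. At least 5 members fell to 42 genes, and 796 members (30.4%) had another within 100 kb. That last share was not computed for the other early regions, so it is a description only. By chromosome the share of early regions that were members ran from 1.88% on chromosome 11 (1.54 to 2.28%) to 3.94% on chromosome 3 (3.41 to 4.53%). The most members for 1 gene, 8, lay around Hdgfl1 (of 27 early regions) and Adgrl2 (of 102). Around Hdgfl1, on chromosome 13, members were open in 0.121 to 4.27% of E12.5 and 0.255 to 2.49% of E14.5 nuclei.

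Of the other genes with most members, Robo1, an axon guidance receptor gene, had 7 of 81, Flrt2, an adhesion ligand gene, 7 of 53, and Tenm3, a teneurin adhesion gene, 7 of 71. Mecom, a zinc-finger regulator gene, had 7 of 56, Magi1, a junction scaffold gene, 7 of 58, and Sel1l, a gene of protein quality control, 7 of 41. The highest shares were 6 of 14 around Fam19a2, 6 of 17 around Fgf9 and 6 of 17 around Zwint. All these genes, Hdgfl1 and Adgrl2 included, were picked for having the most members, so raised shares follow from that choice. Over all early regions the share was 3.06%. Among intergenic regions in general it was 14.8% in bin 1, 9.12% in bin 2 and 2.50% in bin 5. The regions around these genes were not split by level. Fgf9 encodes a growth factor of limb mesenchyme and cartilage. The TTTATNG letters, found in 36.3% of all member windows outside promoters, were in 4 of its 6 members and in 4 of 7 around Sox9 and Tenm3, but in 2 of 8 around Hdgfl1, 2 of 7 around Flrt2 and Robo1 and 0 of 7 around Magi1. The strongest of them at E14.5, at chr14:58306753-58307643, was open in 1.001% of E12.5 and 3.69% of E14.5 nuclei.

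Among lists of limb genes, the share of early regions that were members stood close to the 3.06% of all early regions for most. For posterior and distal limb genes it was 23 of 611 (3.76%, 2.40 to 5.60%). Sall1, a zinc-finger gene of the distal limb, had 4 of 39, Jag1, a Notch ligand gene, 3 of 30, and Tfap2a and Hand2 had 2 each. The strongest near Hand2, a regulator of posterior limb identity, lay 310760 bp upstream at chr8:57009278-57011167 and was open in 4.64% of E12.5 and 2.54% of E14.5 nuclei. Its called widths were 1890 and 766 bp, and its log2 ratio per kb was -0.08. For proximal limb genes the share was 12 of 360 (3.33%), of which Tbx18 had 5 of 32 and Meis1 had 2. Tbx18 encodes a T-box repressor, and its members were open in 0.555 to 4.93% of E12.5 and 1.29 to 3.46% of E14.5 nuclei. The TTTATNG letters were in 4 of the 5 near Tbx18, 1 of the 4 near Sall1 and none of those near Hand2 and Tfap2a.

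In the gene desert between Atp5g3 and Evx2, known for enhancers of the posterior HoxD genes in the digits, 6 of 45 early regions (13.3%, 5.05 to 26.8%) were members, against 3.06% of all early regions. Intergenic regions in general had 14.8% in bin 1, 9.12% in bin 2, 6.35% in bin 3 and 2.50% in bin 5. The 45 desert regions were not split by level, so their share has no comparison at like level. The strongest desert member, at chr2:74152871-74153962, was open in 3.87% of E12.5 and 2.53% of E14.5 nuclei, with 9.26 and 6.78 CPM per kb. The other 5 were open in 0.229 to 2.19% and 0.599 to 1.65%, and 2 of the 6 held TTTATNG letters.

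The chondrogenic list had 17 of 306 (5.56%, 3.27 to 8.75%) and the MP panel 13 of 232 (5.60%, 3.02 to 9.39%). The lower bound of the chondrogenic list lay just above 3.06% and that of the MP panel just below it. Among sparse regions alone, 17 of 160 (10.6%) of the chondrogenic and 13 of 104 (12.5%) of the MP panel regions were members, against 6.63% over all genes. Other lists reached similar sparse shares, with 4 of 24 (16.7%) for Schwann and neural markers, 4 of 42 (9.52%) for endothelial markers and 11 of 129 (8.53%) for somite and muscle precursor genes. Sox9, the master regulator of cartilage, had 7 of 70, all intergenic and 53593 to 761644 bp from its start site, open in 0.350 to 1.75% of E12.5 and 0.350 to 1.47% of E14.5 nuclei. Sox5, its partner in cartilage, had 4 of 41, Hapln1, a cartilage link protein gene, 3 of 12, and Col9a1 had 1. In the MP panel Sox11 had 5 of 47, Osr1, a transcription factor gene of connective tissue progenitors, 4 of 29, Id2 had 2 of 23 and Hmga2 had 1. The Hmga2 region, 112386 bp upstream of this gene of early growth, was open in 6.31% of E12.5 and 1.34% of E14.5 nuclei and lay 172 bp from an E16.5 peak. Its called widths were 2295 and 410 bp, and its log2 ratio per kb was -0.55.

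The tenogenic list had 2 of 181 (1.105%, 0.134 to 3.93%), both near Mkx, a tendon transcription factor gene. The fibrogenic and dermal list had 8 of 241 (3.32%), with 2 each near Dcn and Irx1 and 1 each near Twist1 and Lef1. The E14.5 peak near Lef1 was only 9 bp wide, with counts in 11 nuclei. Somite and muscle precursor genes had 11 of 277 (3.97%), with 4 near Eya1, 2 near Pax3 and 1 at the promoter of Myog. Genes of developmental timing had 3 of 136 (2.21%) and cell cycle genes 4 of 131 (3.05%). The cell cycle member near Cdk1 had an E14.5 peak of 10 bp with a count in 1 nucleus. Near endothelial and blood markers, the cell types the sort was meant to remove, 4 of 94 and 2 of 90 early regions were members. Near markers of other cell types the counts were 1 of 44 for epithelial cells, 4 of 56 for Schwann and neural cells and 0 of 34 for pericytes. In the Schwann and neural list 3 of the 4 lay near Isl1, a LIM homeodomain gene that also acts in early limb fields.

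Outside promoters, 926 of 2549 member windows (36.3%, 34.5 to 38.2%) held the posterior Hox letters TTTATNG on either strand, against 17.4% of 65499 windows of the other early regions (17.1 to 17.7%) and 16.9% of the sparse ones. Exactly 2 matches were found in 153 member windows (6.00%, against 1.85% of the other early regions). There were 3 or more in 29 (1.14% against 0.194%). The form TTTATTG was in 15.03% of member windows against 6.76%, TTTATGG in 13.6% against 5.84% and TTTATAG in 12.2% against 5.59%. At promoters, where members were few, the shares were 21 of 72 (29.2%, 19.05 to 41.1%) against 6.12% of 17431, but the reordered letters TTTTANG were in 24 of 72 (33.3%) against 7.78%. The rarer TTTATCG was in 0.588% of member windows against 0.634%.

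The share was higher in members in all 5 bins of G and C content, though below 35% the intervals overlapped. In windows of 50% or more G and C, 24.1% of members (19.7 to 29.0%) and 8.83% of the other early regions held them, and from 40 to 45% the shares were 39.1% and 23.7%. Below 35% they were 45.8% (36.1 to 55.7%) and 35.9% (33.4 to 38.5%). Outside promoters, other orders of the same letters differed less: TTATTNG was in 19.1% against 12.2%, TTTTANG in 28.6% against 18.3%, ATTTTNG in 16.6% against 14.98% and TATTTNG in 14.8% against 13.3%.

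The letters were most frequent near the centre of member peaks. In bins of 50 bp, 8.43% of members had a match within 50 bp to the left of the E14.5 peak centre and 8.24% to the right, falling to 3.33% and 3.92% at the outermost bins. In the other early regions the same bins held 3.25%, 3.32%, 2.98% and 2.89%. The AP-1 letters showed the opposite picture, with 1.49% and 0.942% of members in the central bins and 2.69% and 2.76% of the other early regions.

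**Figure D3:**
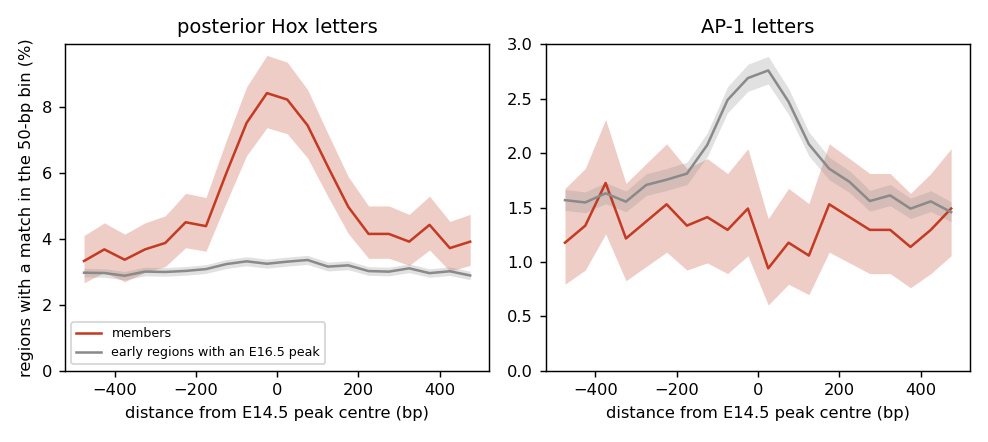
Percent of regions outside promoters with a match in each 50-bp bin (y) by distance from the E14.5 peak centre in bp (x), for the posterior Hox letters (left) and the AP-1 letters (right), in members (red) and early regions with an E16.5 peak (grey), with exact binomial intervals shaded. The Hox letters peak at the centre of members at 8.43%, and the AP-1 letters peak only in the comparison.

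Of the other motifs searched, T-box letters AGGTGTGA were in 3.57% of member windows against 1.42%, and the homeodomain letters TAATTA in 10.5% against 7.52%. Within bins of G and C content the homeodomain shares lay closer and their intervals overlapped in all 5, for example at 10.45% (8.51 to 12.7%) and 10.02% (9.54 to 10.5%) from 40 to 45%. The letters CCAAT of NF-Y, which overlap TTTATNG where TTTATTG precedes G, were in 39.9% against 33.4%. Less frequent in members were AP-1, in 7.22% (6.24 to 8.29%) against 13.3%, the CTCF core AGGNGGC in 14.6% against 22.4%, the NFI letters TTGGCA in 16.7% against 21.9% and the Sp/KLF letters GGGCGG in 3.92% against 9.28%. The AP-1 share was lower in members in all 5 bins of G and C content, from 4.71% against 14.2% at 45 to 50%, the widest gap, to 10.5% (7.93 to 13.5%) against 14.2% (13.3 to 15.1%) at 35 to 40%, where the intervals overlapped. They also met at 50% or more, at 7.85% (5.24 to 11.21%) against 11.6% (11.2 to 12.02%). The CTCF shares lay closer within bins, at 18.0% and 20.6% from 45 to 50%, and their intervals overlapped in all bins but 35 to 40%. The NFI shares were 14.9% and 23.6% from 40 to 45% and 16.2% and 22.5% from 45 to 50%. In the other bins the NFI intervals overlapped. The Sp/KLF letters, all G and C, were not split by G and C content. The letters GGAATG of TEAD factors were in 23.3% against 22.8%, ACAAAG of Sox factors in 22.4% against 22.7%, CTTTGA of TCF/LEF in 19.4% against 19.6% and TGTGGT of Runx in 24.2% against 22.3%. The Meis letters TGACAG were in 18.9% against 21.6%, and the letters TGATNNAT of Hox with Pbx in 11.5% against 12.5%. Also plotted are the letters AGATAA for Gata factors, the letters CCGGAA for Ets factors, the letters TAATCA for Lhx factors and the letters TGTTTAC for Forkhead factors.

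**Figure D4:**
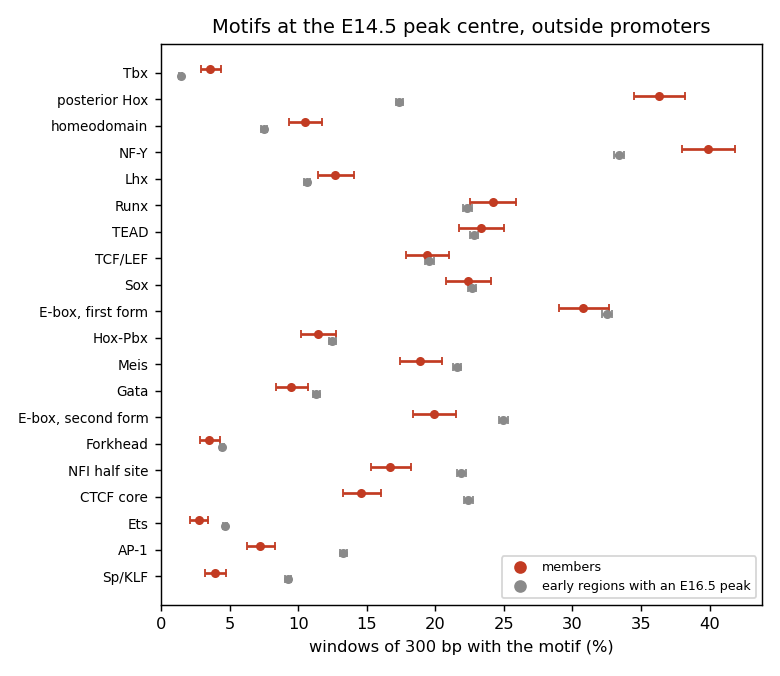
Percent of 300-bp windows at the E14.5 peak centre, outside promoters, that hold each motif on either strand (x), for members (red) and early regions with an E16.5 peak (grey), with exact binomial intervals; motifs are ordered by the ratio, and the E-box forms are CAGATG (first) and CAGCTG (second). Posterior Hox letters stand at 36.3% against 17.4% and AP-1 letters at 7.22% against 13.3%.

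Read the other way, 7.52% of early regions outside promoters with TTTATNG letters were members (7.06 to 7.998%), against 2.91% of those without (2.77 to 3.05%). Among sparse regions these were 13.3% and 5.32%. With AP-1 letters 2.07% were members and without them 3.997%. Sparse regions with TTTATNG and no AP-1 letters were members in 14.2% (13.3 to 15.2%), and those with AP-1 and no TTTATNG letters in 2.59% (2.13 to 3.12%).

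A list of all 8192 words of 7 letters, taken with their reverse complements and compared with sparse early regions, was led by AATAAAA (24.0% of members against 12.7%). CAATAAA (15.03% against 6.62%) and CCATAAA (13.6% against 5.57%), both forms of CNATAAA, stood among the leading 6. The word TGACTCA, an AP-1 site, was the furthest in the other direction, in 3.96% against 10.6%. The word AGAGGGC, part of the CTCF site, followed at 3.37% against 9.27%. It is not matched by the CTCF core letters AGGNGGC used above and was not split by G and C content. Other leading words, such as ATAAAAT, were AT-rich and did not hold CNATAAA.

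Regions of the other stage patterns searched held the Hox letters less often, and regions called only at E14.5 were not searched. Regions called only at E12.5 held TTTATNG in 18.6% of windows, those called at E14.5 and E16.5 in 22.2%, and those called only at E16.5 in 15.2%, each at its own peak centre. Those called at E12.5 and E16.5 and not at E14.5 held TTTATNG in 14.6% of windows at the E12.5 peak centre. At the E12.5 peak centre, members held it in 34.5%. The AP-1 letters were in 15.9% of regions called only at E12.5 and 10.2% of those called at E14.5 and E16.5. They were in 26.0% of those called only at E16.5 and 25.9% of those called at E12.5 and E16.5. The NFI letters were in 44.6% of the regions called at E14.5 and E16.5, against 16.7% of member windows at the same E14.5 peak centre. At the E12.5 peak centre they were in 14.1% of member windows and 10.8% of the regions called only at E12.5. T-box letters were in 2.67% of the regions called only at E12.5 and 1.008% of those called only at E16.5.

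Members with and without TTTATNG letters had similar shares of nuclei. The median share was 1.16% with and 1.25% without at E12.5, and 0.999% and 0.949% at E14.5. The median log2 ratio was 0.39 (0.35 to 0.46) with and 0.26 (0.22 to 0.31) without.

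E14.5 nuclei differed in how much of their signal fell in members. Nuclei were placed in 7 clusters on 89561 E14.5 peaks in regions called at all 3 stages, so without the members, and clusters are given by number. Member cut sites per 1000 cut sites in those regions were 6.94 in cluster 4 (6.88 to 6.99), 6.84 in cluster 2 and 5.46 in cluster 6. They were 4.14 in cluster 7, 3.91 in cluster 1, 2.91 in cluster 3 and 2.49 in cluster 5 (2.46 to 2.52), with 4.63 over all nuclei. The highest cluster was thus 2.79 times the lowest. This ratio was 3.403 with another seed and 3.57 with 10 clusters, so the intervals do not cover the choice of clusters. Values by cluster, here and below, are for these 7 clusters only. Sparse early regions with an E16.5 peak varied less, from 62.3 per 1000 in cluster 3 to 78.8 in cluster 5, the cluster where members were lowest.

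**Figure D5:**
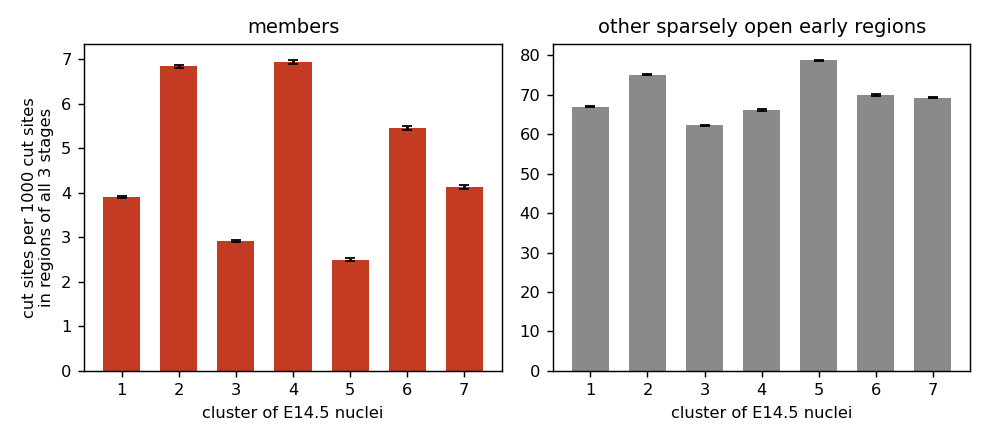
Cut sites per 1000 cut sites in regions called at all 3 stages (y) in each of 7 clusters of E14.5 nuclei (x), for members (left) and for other early regions open in at most 2% of E14.5 nuclei (right), with exact Poisson intervals on fragments. Member bars run from 2.49 in cluster 5 to 6.94 in cluster 4, while the right-hand bars stay between 62.3 and 78.8.

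Members with TTTATNG letters ran from 0.880 per 1000 in cluster 5 to 2.95 in cluster 4, and those without from 1.61 in cluster 5 to 4.09 in cluster 2. Median depth per nucleus was 8228 cut sites in cluster 4, 8482 in cluster 2 and 9636 in cluster 6. It was 10352 in cluster 7, 8214 in cluster 1, 7939 in cluster 3 and 8572 in cluster 5. A part of depth in the member rates was not tested.

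The clusters differed at limb genes, which were among the regions used to make them. Cluster 4 had the highest signal per 1000 nearest to Hoxd13 and Hoxa13, genes of the hand, at 0.0821 and 0.0915, against 0.0339 and 0.0502 over all nuclei, and cluster 2 followed at 0.0457 and 0.0601. Cluster 6, where the member rate was 5.46, was the lowest at Hoxd13 (0.0194) and Hoxd11 (0.136) and below all nuclei at Hoxa13 (0.0407). Over the whole posterior and distal limb list, cluster 4 was the highest at 7.31 against 6.36 over all nuclei, cluster 5 followed at 6.815, and cluster 2 had 6.195. Cluster 4 was also the highest at Hoxd11, at 0.290 against 0.176, and the lowest at Meis1, a proximal gene, at 0.246 against 0.328. Other proximal values in cluster 4 lay close to those over all nuclei, at 0.138 against 0.141 for Meis2 and 3.65 against 3.697 for the whole proximal limb list, where clusters 1, 2 and 7 were lower. Cluster 5, where members were lowest, had the highest signal at Meis1 (0.470) and at Twist2, a dermal gene (0.377 against 0.234). Cluster 7 was the highest at Col2a1, a cartilage collagen gene (0.324 against 0.129). Since the E16.5 segment had no hand, the stage and the part of the limb cannot be told apart in these values.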

How the data were processed

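Single-nucleus ATAC-seq counts and peak lists were used as deposited. The authors made the counts, whole numbers of cut sites per peak and nucleus that were not normalised, with Cell Ranger ATAC (1.1.0 in the submitters' processing notes, 1.0.1 and 1.2.0 in the file headers) on mm10, and called peaks in each library alone. Peak coordinates were deposited without scores. Members, gene lists and motifs were chosen with earlier results of these data known. Genes came from the GENCODE basic annotation of GRCm38, and each region was tied to the nearest protein-coding start site. Levels were CPM over early regions per kb of called peak, with no pseudocount, and ratios left out regions with no count at a stage. Shares carry exact Clopper-Pearson intervals, medians binomial intervals and sums exact Poisson intervals on cut sites divided by 2. Named regions outside promoters were the 12 members with the highest of the lower of both shares, and at promoters the 8 highest, with 1 per nearest gene; named genes were the 12 with the most members and up to 4 per list. Some of these are not reported here. The gene desert, the words of 7 letters and the other orders of letters were chosen after their values were seen. E14.5 nuclei were clustered by k-means (10 starts, scikit-learn 1.9.0) on 30 latent semantic components, of which 1 that followed depth was dropped. No nuclei were filtered and no doublet caller was run. The motif search and intervals were tested on simulated data. Depth differed between libraries (medians of 6004 to 26694 cut sites per nucleus), and other overlap rules, levels, widths, scalings, promoter windows and cluster numbers were tried. No test was possible with 1 library per stage.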

Additional observations from a re-analysis of the deposited data

How the results depend on the processing

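No paired analysis was possible because each stage had 1 library and no test was run; for the same reason no library could be left out. Several settings could not move some results, such as a change of count unit for the peak-based ones, so values that stayed the same are not listed. With the median ratio of early regions set to 1, which takes the same constant from every region, the median log2 ratio of members went from 0.31 to -0.078. With a reciprocal overlap of at least 50% there were 966 members (1.61% of early regions), with median shares of 0.904% at E12.5 and 1.30% at E14.5, a log2 ratio of 0.52, 0.353% and 0.294% of counts, a ratio of 3.33 between the highest and lowest cluster and Hox letters in 40.3% of windows. With direct overlap of peaks there were 3016 members (3.32%), with an E12.5 share of 1.37%, a log2 ratio of 0.45, 81.4% within 10 kb of an E16.5 peak, 1.31% and 0.523% of counts and a cluster ratio of 2.72. Requiring no E16.5 peak within 1000 bp left 2203 members (2.58%), at a median distance of 104928 bp, 75.2% within 10 kb, and 0.850% and 0.389% of counts. Requiring 1% of nuclei at both stages left 803 (1.28%), with shares of 2.01% and 1.42%, a log2 ratio of 0.078, a distance of 118736 bp, 0.518% and 0.249% of counts and a cluster ratio of 3.08. Among single-peak regions 3.37% were members, with 1.19% and 0.553% of counts. Called widths of at least 100 bp, chosen after seeing the data, left 2198 members (2.67%), an E14.5 share of 1.05% and 0.873% and 0.450% of counts. Without the deepest 5% of nuclei the shares were 0.990% and 0.889% and the counts 1.013% and 0.472%. With binarised counts the log2 ratio was 0.63, the counts 1.13% and 0.613% and the cluster ratio 2.63. Counts were 0.983% and 0.456% without repeat-rich regions, and 0.987% and 0.458% with the sex chromosomes. A promoter window of 2000 bp either side gave 6.30% of members, and start sites of all genes a distance of 26057 bp. With 10 clusters the ratio was 3.57 and with another seed 3.403. The cause of these moves was not tested. At E14.5, 11 members (0.420%) had no count, against 0.341% of the other sparse early regions.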
